A study of Rattus norvegicus with 9 samples.

Results

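The fatty acid elongases and stearoyl-CoA desaturases were described in the skin of 4 old (24 months) and 5 young (6 months) male rats of the outbred Wistar strain. The 9 members were taken by symbol from a table of read counts for 23480 gene symbols (rows ELOVL1 to ELOVL7, SCD1 and SCD), and all 9 had a row. The labels name no engineered allele and no treatment in either group, and they do not say from which body site the skin came. Polyadenylated RNA was sequenced from whole tissue, so fewer cells of a type and less RNA per cell cannot be told apart. The markers of skin were present: 14 of 14 sebaceous gland markers and 8 of 8 basal epidermis markers had counts. Libraries of old skin held 20.1 to 34.1 M counts and those of young skin 17.3 to 20.2 M, where M stands for 1000000.

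Elongases catalyse the first and slowest step of the cycle in the endoplasmic reticulum that lengthens fatty acids with carbons from malonyl-CoA. Each prefers acids of certain lengths and saturation. Elovl6 turns palmitate into stearate, Elovl3, Elovl7 and Elovl1 handle longer saturated and monounsaturated chains, and Elovl4 makes the longest ones. Elovl5 and Elovl2 handle polyunsaturated chains. Stearoyl-CoA desaturases put the first double bond into palmitate and stearate and so make palmitoleate and oleate. In skin these products go into sebum, into the ceramides of the water barrier and into fat stores. Mouse mutants of Scd1 and Elovl3 have defects of sebaceous glands or hair, and mouse mutants of Elovl1 and Elovl4 have a failing skin barrier.

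In old skin 7 members fell, 0 rose, 1 did not pass and 1 was too low to be tested. Those that fell were Elovl6, Scd1, Elovl3, Scd, Elovl4, Elovl1 and Elovl5, with log2 fold changes (old over young) from -3.09 to -0.98. Elovl7 did not pass and Elovl2 was not tested. DESeq2 and limma-voom also gave 7 falls and 0 rises among the members. Of all genes, DESeq2 called 1280 falls and 1969 rises and limma-voom 729 and 1325, beside 659 and 1437 with edgeR. Across the 14933 genes tested, 4.41% were called lower in old skin and 9.62% higher (edgeR quasi-likelihood test, Benjamini-Hochberg adjusted p under 0.05). The groups did not overlap in 6 members, each with old below young, as in 6.51% of all genes tested, while 10% of all genes had old above young and 16.5% either; 14% were called in either direction. The median log2 fold change of the 8 members tested was -1.27, beside -0.05 for all genes tested. Elovl6 passed the filter on low counts through the young samples (5 of 5 young and 1 of 4 old lay above it), so it adds nothing to these counts. Without it, 6 of 7 members fell, 5 did not overlap, and the median was -1.25. With library totals alone as the scaling, 86.2% of all calls were higher in old skin, beside 68.6% with TMM, and the median of all genes moved to 0.11. Under that scaling 4 members fell, namely Elovl6, Scd1, Elovl3 and Scd. Leaving out any one of young replicates 2 to 5, old replicate 2 and old replicate 4 also gave 4. Elovl6 is in each of these counts of 4 and adds nothing to them.

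**Figure D1:**
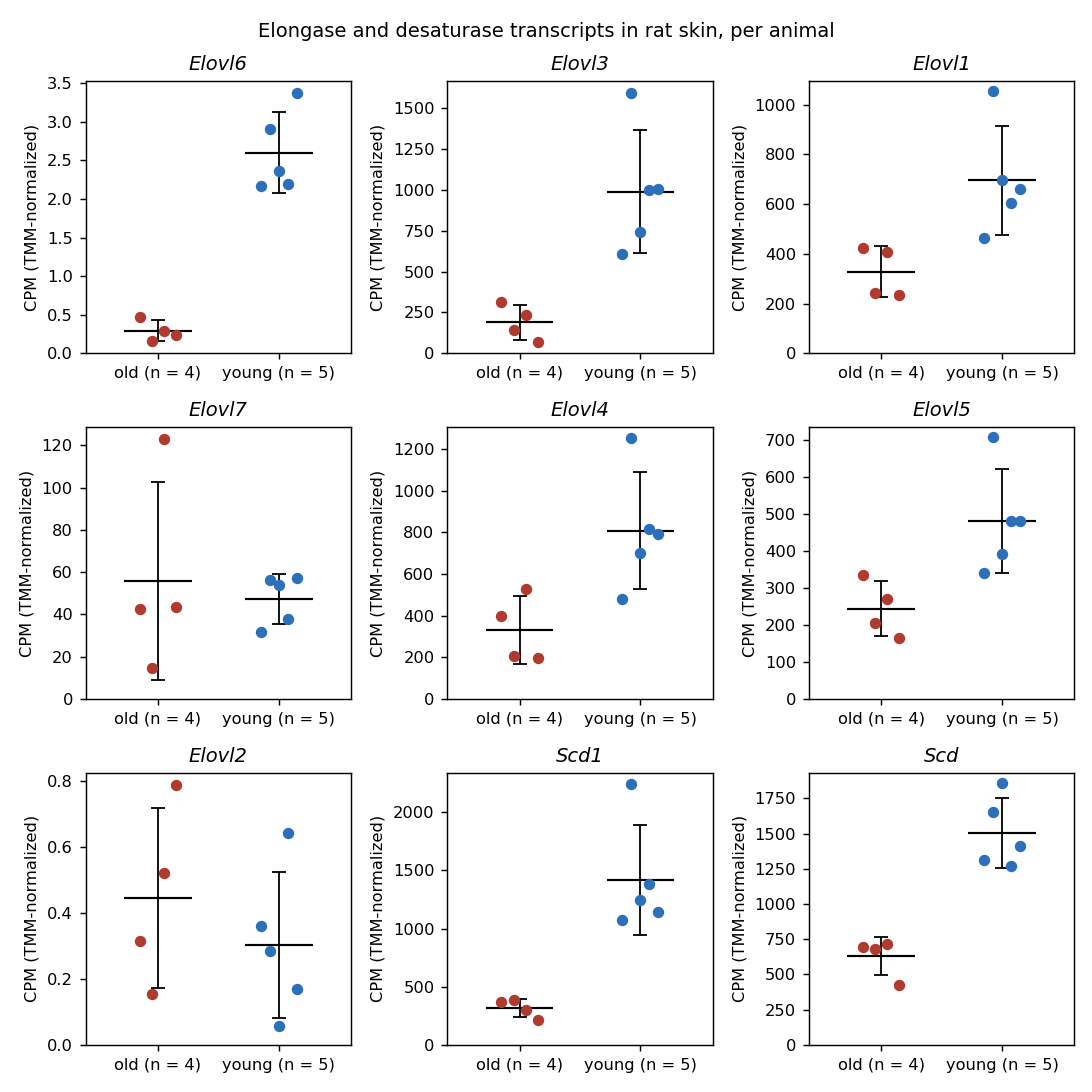
Counts per M (CPM, TMM-normalized, linear axes from 0) of the 9 members in each animal, old left of young; points are animals, lines the means and bars the SD (n = 4 old, n = 5 young). Old samples lie below all young samples for Elovl6, Elovl3, Elovl1, Elovl5, Scd1 and Scd, and the groups overlap for Elovl4, Elovl7 and Elovl2.

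Promoter windows from RefSeq (rat assembly GRCr8) were available for 7 of the 8 members that could be looked up by name, all but Elovl6. Each runs from 250 bases before to 50 bases after a gene's start. The windows shown are those of Elovl3 and Scd1, of the members that fell most, and of Elovl5, among those that fell least, with that of Scd2. RefSeq lists Scd1 as a synonym of the gene it now calls Scd, and Scd as a synonym of the gene it now calls Scd2. Which of these genes the Scd row of the table counts cannot be told from its name. Capitals mark matches on either strand to TCACNCCAC (a sterol regulatory element), CCAAT (the NF-Y box, ATTGG on the other strand), GGGCGG (an Sp1 box) and CACGTG (an E-box).
Elovl3, chr1:254938481-254938780, plus strand: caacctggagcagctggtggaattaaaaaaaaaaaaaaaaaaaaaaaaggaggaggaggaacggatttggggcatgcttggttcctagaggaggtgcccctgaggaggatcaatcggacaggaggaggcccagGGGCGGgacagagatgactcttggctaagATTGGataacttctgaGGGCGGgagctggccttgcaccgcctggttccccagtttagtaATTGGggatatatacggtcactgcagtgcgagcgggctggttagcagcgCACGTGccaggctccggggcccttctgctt
Elovl5, chr8:87670914-87671213, plus strand: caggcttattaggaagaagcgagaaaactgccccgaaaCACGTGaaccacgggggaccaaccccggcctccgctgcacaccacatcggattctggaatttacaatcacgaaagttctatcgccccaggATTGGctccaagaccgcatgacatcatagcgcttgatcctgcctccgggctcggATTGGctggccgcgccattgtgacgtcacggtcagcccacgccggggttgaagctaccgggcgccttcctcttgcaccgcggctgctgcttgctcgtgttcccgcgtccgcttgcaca
Scd1, chr1:253231682-253231981, minus strand: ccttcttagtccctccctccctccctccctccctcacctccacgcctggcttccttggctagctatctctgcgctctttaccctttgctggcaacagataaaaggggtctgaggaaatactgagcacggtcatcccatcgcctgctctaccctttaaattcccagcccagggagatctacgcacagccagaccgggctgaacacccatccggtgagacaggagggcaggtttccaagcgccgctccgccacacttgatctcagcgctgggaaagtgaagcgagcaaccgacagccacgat
Scd2, chr1:253118127-253118426, plus strand: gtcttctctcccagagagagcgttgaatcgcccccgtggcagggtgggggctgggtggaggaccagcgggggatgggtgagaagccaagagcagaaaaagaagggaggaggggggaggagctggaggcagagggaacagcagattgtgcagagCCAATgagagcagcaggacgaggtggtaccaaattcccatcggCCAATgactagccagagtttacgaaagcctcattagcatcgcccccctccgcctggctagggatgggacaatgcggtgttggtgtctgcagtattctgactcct
The Elovl3 window held 2 CCAAT boxes on the reverse strand, starting 88 and 29 bases before the start, 2 GGGCGG boxes and 1 CACGTG. The Elovl5 window held 2 reverse CCAAT boxes, starting 122 and 68 bases before the start, and 1 CACGTG. The Scd2 window held 2 CCAAT boxes, 97 and 54 bases before the start, and the Scd1 window held none of the motifs. Of all 33469 windows, 37.5% held CCAAT, 11.2% held it at least 2 times, 33.1% held GGGCGG, 6.42% held CACGTG and 1.12% held TCACNCCAC. No member's window held TCACNCCAC. No overlap between motifs was found in the windows shown. A match is a stretch of letters and says nothing here about binding.

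Elovl6, which makes stearate from palmitate, was scarce in skin of both ages and had the largest fold change of the members. Its CPM was 0.48, 0.15, 0.29 and 0.24 in old replicates 1 to 4, against 2.17, 2.91, 2.36, 2.20 and 3.37 in young replicates 1 to 5. All old samples lay below all young ones. These values rest on 3 to 18 reads per library in old skin and 40 to 59 in young skin. The log2 fold change was -3.09 ± 0.33 (SE; edgeR adjusted p = 0.00138), that is 8.52-fold lower in old skin. Since young skin alone carried the gene through the filter, the test was also run with no filter beyond 1 count, where the value was -3.10 (edgeR adjusted p = 0.00146). From pooled counts, 37 reads in old and 233 in young skin, the ratio of young to old was 8.19 (95% exact binomial interval 5.77 to 11.9, counting error only). It kept its call without any one library, at log2 fold changes from -3.40 to -2.92.

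Both desaturase rows fell, with the larger fold change in Scd1. Scd1 stood at 373, 386, 299 and 216 CPM in old replicates 1 to 4, against 1073, 2239, 1244, 1384 and 1139 CPM in young replicates 1 to 5. The highest old sample, at 386 CPM, lay below the lowest young one, at 1073 CPM. Its log2 fold change was -2.15 ± 0.28 (SE, edgeR adjusted p = 0.00185), 4.45-fold lower. Scd stood at 697, 679, 716 and 428 CPM in old skin, against 1315, 1653, 1860, 1271 and 1410 CPM in young skin. Again the groups did not overlap, and old replicate 4 was the lowest sample for both rows. The log2 fold change of Scd was -1.25 ± 0.20 (SE, edgeR adjusted p = 0.00404). The genes are close relatives that can share reads, so each row is uncertain; summed into 1 row they changed by -1.62 ± 0.22 (SE, edgeR adjusted p = 0.00218).

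Of the reads in both rows, Scd1 made up 34.9, 36.2, 29.5 and 33.5% in old replicates 1 to 4, against 44.9, 57.5, 40.1, 52.1 and 44.7% in young replicates 1 to 5. The old shares, 33.5 ± 2.93% (SD, n = 4), all lay below the young ones, 47.9 ± 6.91% (SD, n = 5). The share was not tested. Another desaturase row, Scd4, was outside the 9 members and too low to be tested, at 0.15 ± 0.15 CPM in old and 0.089 ± 0.063 CPM in young skin (SD, n = 4 and 5).

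Elovl3, the elongase of saturated and monounsaturated chains known from sebaceous gland, hair follicle and brown fat of the mouse, had the second largest fold change of the members, after Elovl6. It stood at 315, 142, 235 and 70.6 CPM in old replicates 1 to 4, against 608, 1590, 744, 998 and 1004 CPM in young replicates 1 to 5. The highest old sample, replicate 1, lay below the lowest young sample, also replicate 1. Its log2 fold change was -2.37 ± 0.45 (SE, edgeR adjusted p = 0.0081), 5.18-fold lower, and it ran from -2.67 to -2.05 when any one library was left out, with the call kept each time. The brown fat marker Ucp1 was at 0 in all samples, and none of the 6 brown fat markers tested passed. The adipocyte marker Pnpla2 was also at 0 in all samples, beside Adipoq at 902 ± 434 CPM in old skin (SD, n = 4). A row at 0 therefore cannot show that a gene is silent. Zic1 alone of the 6 had old samples all below young ones (log2 fold change -2.02 ± 0.83, SE). The median log2 fold change of the brown fat list was -0.82. The summed level of that list was 125 to 245 CPM in old and 218 to 447 CPM in young skin. Its largest terms were Cpt1b, Cox8b and Cidea, with means of 66.2, 53.1 and 68.7 CPM in old skin. In young skin these means were 90.3, 99.7 and 115 CPM. Cidea also stands in the sebaceous gland list. The highest young sums, in replicates 2 and 5, fell on the libraries with the highest young sums of skeletal muscle markers. The sum and the median are therefore not read as a level of brown fat.

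Elovl1, which makes the very long saturated and monounsaturated chains of ceramides, fell by a smaller factor. It stood at 423, 243, 409 and 234 CPM in old replicates 1 to 4, against 464, 1053, 696, 605 and 662 CPM in young replicates 1 to 5. The groups were adjacent, with old replicate 1 at 423 CPM and young replicate 1 at 464 CPM. Its log2 fold change was -1.09 ± 0.28 (SE, edgeR adjusted p = 0.0301). The call held when young replicate 1, old replicate 1 or old replicate 3 was left out and ended for each other library, where the adjusted p reached 0.105 and the log2 fold change lay between -1.11 and -0.89.

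Elovl7, a further elongase of saturated and monounsaturated chains, did not pass. It stood at 42.4, 14.6, 123 and 43.4 CPM in old replicates 1 to 4, against 31.8, 56.2, 54.1, 37.7 and 57.2 CPM in young replicates 1 to 5. Old skin held both the lowest and the highest sample. The log2 fold change was 0.24 ± 0.49 (SE, edgeR adjusted p = 0.773; 95% interval -0.85 to 1.33). Without old replicate 3 the value was -0.47. Among the old samples that library also had the highest sums of basal epidermis (11071 CPM), suprabasal epidermis (23164 CPM) and macrophage markers (1338 CPM). Its sums of adipocyte (6496 CPM), skeletal muscle (17432 CPM) and hair follicle markers (80.3 CPM) were the lowest of the old samples. Relative to the basal epidermis sum, Elovl7 was 1.11% in that library, against 0.512, 0.255 and 0.509% in old replicates 1, 2 and 4. The part of the other sums in the Elovl7 value was not tested.

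Elovl4, which makes the ultra-long chains of the acylceramides that seal the epidermis, fell, but its groups overlapped. It stood at 400, 204, 527 and 195 CPM in old replicates 1 to 4, against 479, 1252, 700, 816 and 794 CPM in young replicates 1 to 5. Old replicate 3 lay above young replicate 1. The log2 fold change was -1.28 ± 0.37 (SE, edgeR adjusted p = 0.0452). Leaving out young replicate 1 or old replicate 3 kept the call and leaving out any other one library ended it, with adjusted p up to 0.137 and log2 fold changes between -1.33 and -1.05.

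Of the elongases of polyunsaturated chains, Elovl5 fell and Elovl2 was close to the limit of detection. Elovl5, which lengthens products of the linoleic and linolenic acid series, stood at 335, 206, 269 and 165 CPM in old replicates 1 to 4, against 341, 707, 392, 480 and 481 CPM in young replicates 1 to 5. Old replicate 1 and young replicate 1 were nearly level. Its log2 fold change was -0.98 ± 0.26 (SE, edgeR adjusted p = 0.0364), and its call held up to leaving out replicate 1 of either age but not any other one library (adjusted p up to 0.115, log2 fold changes between -1.04 and -0.78). Elovl2, which acts on longer polyunsaturated chains, had 3 to 20 reads per library in old skin and 1 to 12 in young skin. Pooled, these were 53 and 28 reads, a ratio of old to young of 1.46 (95% exact binomial interval 0.904 to 2.39, counting error only), and no difference was detectable at this depth.

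**Figure D2:**
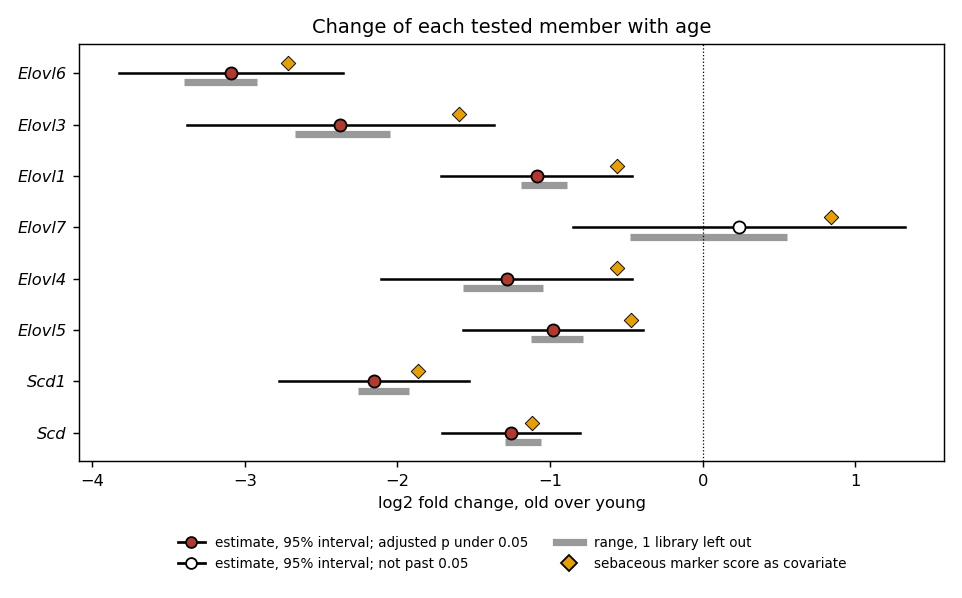
Log2 fold change (old over young) of the 8 tested members with 95% intervals (circles, filled where the adjusted p was under 0.05), the range when any one library was left out (grey bars) and the value with the sebaceous marker score as covariate (diamonds). Elovl6, Scd1 and Elovl3 lie below -2, Elovl7 spans 0, and the grey bars of the others stay below 0.

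The log2 fold changes of the members spanned a range, and ratios between members in each animal show how they stood to each other. The log2 ratio of Elovl3 to Elovl4 counts was -0.35, -0.52, -1.17 and -1.46 in old replicates 1 to 4, against 0.34, 0.34, 0.09, 0.29 and 0.34 in young replicates 1 to 5. Every old sample was below every young one, and the old samples were more spread (SD 0.53 in old, 0.11 in young). The log2 ratio of Elovl3 to Elovl1 was also lower in each old sample, at -1.73 to -0.43 in old and 0.10 to 0.72 in young skin. The ratio of Elovl4 to Elovl1 overlapped, at -0.27 to 0.37 in old and 0.01 to 0.43 in young skin. Only differences between samples are read from these ratios, since transcript lengths were not used, and they were not tested.

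**Figure D3:**
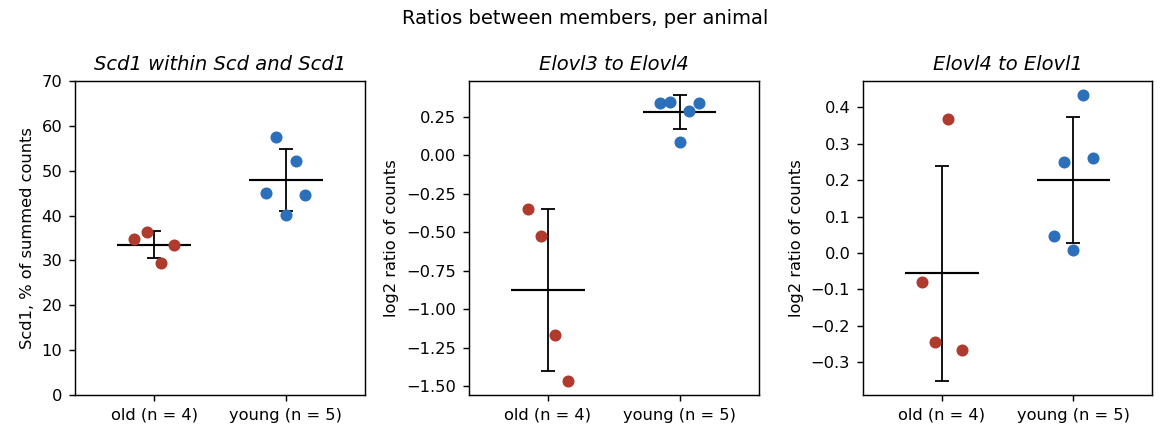
Ratios between members in each animal, old left of young: the percentage of Scd1 among the counts of Scd and Scd1, and the log2 ratios of Elovl3 to Elovl4 and of Elovl4 to Elovl1 counts; lines are means and bars the SD (n = 4 old, n = 5 young). The first 2 panels have no overlap between the ages, and the third has.

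Within each age the same animals were often at the ends of the range. Young replicate 2 was the highest young sample in 5 of 8 tested members and young replicate 1 the lowest in 7. Old replicate 4 was the lowest old sample in 6. The summed CPM of 14 sebaceous gland markers was 2804, 1348, 2647 and 1548 in old replicates 1 to 4, against 2070, 4202, 2481, 3142 and 2923 in young replicates 1 to 5, with the groups overlapping. Of the 13 of these markers tested, 2 fell and 1 rose, while 3 had old samples all below young ones and 1 all above. Krt79 had the highest mean, at 961 ± 406 CPM in old and 1124 ± 312 CPM in young skin (SD). Cyp2b12 stood at 92.9 ± 62.0 CPM in old and 492 ± 210 CPM in young skin without overlap, but did not pass (edgeR adjusted p = 0.0558). An overlap of the sums does not show that the gland was alike at both ages. Of the 14 markers, 5 also stand in the list of sebum waxes and esters. Young replicate 1 was also the lowest young sample in the sums of basal (8667 CPM) and suprabasal epidermis markers (19764 CPM), but the highest in that of hair follicle markers (27260 CPM). Young replicate 2 was also the highest young sample in the macrophage sum (337 CPM), but not in the basal or suprabasal sum. In the sebaceous sum young replicate 2 was highest and young replicate 1 lowest, while the lowest old sample was replicate 2 and not replicate 4. Elovl3 was 11.2, 10.6, 8.88 and 4.56% of that sum in old skin, against 29.4, 37.8, 30.0, 31.8 and 34.3% in young skin. Scd1 was 13.3, 28.6, 11.3 and 13.9% of it in old skin, against 51.8, 53.3, 50.1, 44.0 and 39.0% in young skin. Relative to the sebaceous sum, 6 of 8 members had old samples all below young ones, and Scd and Elovl7 overlapped. Elovl6 is among these 6 and adds nothing to the count. The ratio was not worked out for all genes, so the count is not read as a trait of the members.

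**Figure D4:**
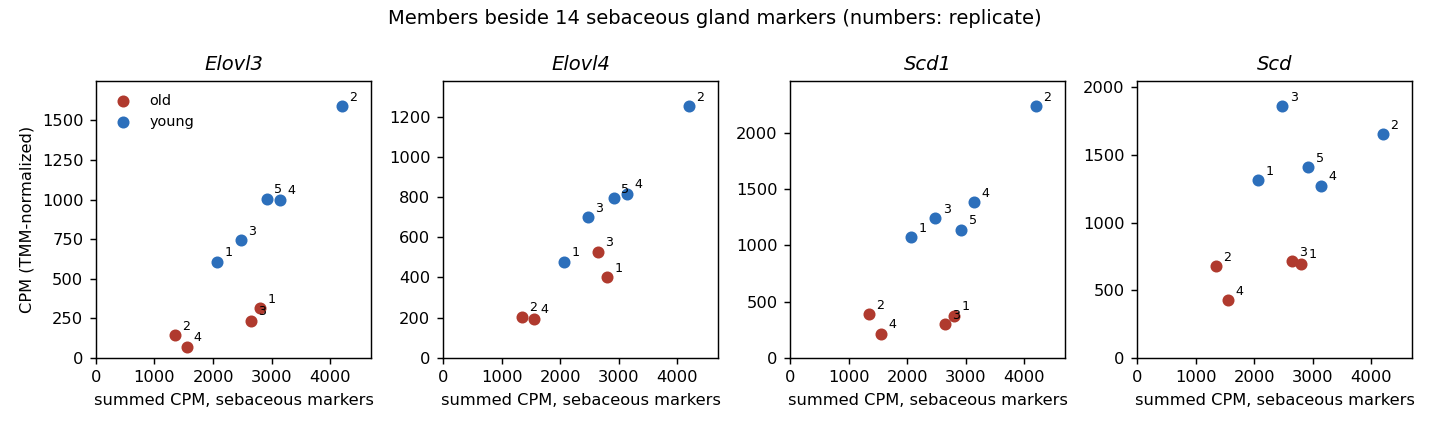
CPM of Elovl3, Elovl4, Scd1 and Scd in each animal (y axis, linear from 0) beside the summed CPM of 14 sebaceous gland markers (x axis), with replicate numbers. Old and young samples overlap along the x axis, and old replicates 1 and 3 (sums of 2804 and 2647 CPM) lie below young replicates 3 and 5 (2481 and 2923 CPM) in all 4 panels.

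With the sebaceous marker score as a covariate, 4 members fell: Elovl6 at -2.72, Scd1 at -1.86, Elovl3 at -1.60 and Scd at -1.12 on the log2 scale. Of all genes, 863 rose and 129 fell with this score, beside 1437 and 659 without it. In that model Elovl4, Elovl1 and Elovl5 lay between -0.56 and -0.47 with adjusted p from 0.0884 to 0.211. Markers of other cell types also differed with age. All 12 macrophage markers rose, summing to 641 to 1338 CPM in old and 162 to 337 CPM in young skin, and 5 of 9 fibroblast markers rose. Of the 8 basal epidermis markers 1 fell. Of 12 skeletal muscle markers 4 fell and 1 rose. They summed to 17432 to 105453 CPM in old and 47395 to 116506 CPM in young skin, so muscle RNA varied widely between samples. The part of macrophages and fibroblasts in the members' values was not tested. The summed adipocyte markers were 6496 to 15955 CPM in old and 3723 to 9091 CPM in young skin, and 11 of 13 tested rose while 0 fell. Car3, which did not pass, was the largest term of these sums, at 5640 ± 2119 CPM in old and 5150 ± 2309 CPM in young skin (SD). Most of the young sum was therefore Car3, and the sums and ratios to them do not follow the markers that rose. Those of suprabasal epidermis were 14492 to 23164 CPM in old and 19764 to 65310 CPM in young skin, and 7 of 13 fell. Relative to the suprabasal sum, 1 of the 8 members (Elovl6) had old samples all below young ones. Relative to the basal epidermis sum 3 did (Elovl6, Elovl3 and Scd1), and relative to the adipocyte sum 7 did, all but Elovl7. Elovl6, which passed the filter through the young samples, is in each of these counts and adds nothing to them. The adipocyte sum was itself higher in old skin (median 11982 CPM, against 5111 CPM in young skin), and dividing by it lowers old values of any gene. These ratios were not worked out for all genes, so the counts are not read as a trait of the members. With the adipocyte or the suprabasal score as a covariate 0 members passed, in edgeR models where of all genes 0 passed with the adipocyte score and 1 rise and 2 falls with the suprabasal score. The log2 fold changes in these models were -3.74 for Elovl6, -1.43 for Scd1, -1.71 for Elovl3 and -0.53 for Scd with the adipocyte score. With the suprabasal score they were -3.00 for Elovl6, -2.05 for Scd1, -1.98 for Elovl3 and -0.70 for Scd. Elovl1, Elovl4 and Elovl5 lay between -0.77 and -0.22 in both. The SE of Elovl6 was 0.89 and 0.64 in these models, beside 0.33 without a score. At an unadjusted p under 0.05 there were 555 rises and 169 falls with the first score and 1564 rises and 1524 falls with the second. A score is the mean log2 CPM of a list's tested markers, centred over the samples, so it can differ from a sum. The sums of both lists overlapped between the ages, but the scores did not. The adipocyte score was 1.13 to 2.40 in old and -2.04 to -0.43 in young skin. The suprabasal score was -0.83 to -0.17 in old and -0.02 to 1.06 in young skin. Age and these scores therefore cannot be told apart. Hair follicle markers ranged from 80.3 to 10535 CPM in old and from 64.5 to 27260 CPM in young skin, and none of the 16 passed. With their score as covariate 7 members fell, and of all genes 1683 rose and 1015 fell. With the skeletal muscle score, 3 members fell (Elovl6, Scd1 and Scd), and Elovl3 was at -2.41 (edgeR adjusted p = 0.0572). Of all genes, 1379 rose and 625 fell with the muscle score. Elovl1, Elovl4 and Elovl5 did not pass there, at -1.13, -1.59 and -0.92 (adjusted p from 0.106 to 0.162).

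Among 82 tested genes of the surrounding pathway in 8 lists, 22 fell and 7 rose, beside 4.41% and 9.62% of all genes. Without old replicate 4 the falls numbered 7, and they numbered 13 or 14 when old replicate 1 or one of young replicates 2 to 4 was left out. They also numbered 13 with library totals alone, 6 with the sebaceous score, 7 with the muscle score and 0 with the adipocyte or suprabasal score. Of 12 genes of fatty acid synthesis and activation, 5 fell and 1 rose (median log2 fold change -0.58). Acly, which supplies cytosolic acetyl-CoA, stood at 259 ± 51.7 CPM in old and 629 ± 146 CPM in young skin (SD, n = 4 and 5), a log2 fold change of -1.28 ± 0.21 (SE, edgeR adjusted p = 0.00423). Fasn, which builds palmitate, the substrate of Elovl6, stood at 458 ± 140 CPM in old and 975 ± 222 CPM in young skin, and Acss2, which makes acetyl-CoA from acetate, fell by 0.99 on the log2 scale. Acsl1, which activates long-chain fatty acids, rose by 1.23. The call of Fasn was lost without old replicate 4 (edgeR adjusted p = 0.0664).

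Of 6 tested partners of the elongation cycle, 1 fell and 1 rose: Hacd2, a dehydratase of the cycle, stood at 62.2 ± 15.7 CPM in old and 131 ± 34.4 CPM in young skin (SD, n = 4 and 5), and its relative Hacd4 at 5.71 ± 2.63 CPM in old and 1.80 ± 0.37 CPM in young skin. The log2 fold changes were -1.07 ± 0.24 for Hacd2, whose call was lost without old replicate 4 (edgeR adjusted p = 0.061), and 1.66 ± 0.31 for Hacd4. The reductases of the cycle, Hsd17b12 (-0.69 ± 0.24, SE) and Tecr (-0.72 ± 0.26, SE), did not pass and were named after their values were seen. Of 6 other desaturases tested, 3 fell and 0 rose. These were Degs1 (-0.82) and Degs2 (-1.34), which desaturate dihydroceramide or hydroxylate it, and Fads6 (-1.02). Fads1 (1.17 ± 0.37, SE, edgeR adjusted p = 0.0638) and Fads2 (-0.37 ± 0.88, SE) did not pass and were named after their values were seen. Both desaturate chains of the same polyunsaturated pathway as Elovl5 and Elovl2. Of 6 electron donors of desaturases, 2 fell: Cyb5r2 (-2.07) and Cyb5b (-0.72). The calls of Degs1 and Cyb5b were each lost in 8 of 9 fits with a library left out, Degs1 with adjusted p up to 0.148 and Cyb5b up to 0.149, all but that without young replicate 1. Leaving out any one of young replicates 2 to 4, old replicate 1 and old replicate 4 ended the call of Cyb5r2 (up to 0.0774).

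Of 17 lipogenic regulators, 4 fell and 2 rose, with a median of -0.14. Ppard, a nuclear receptor for fatty acids, fell by 0.72 on the log2 scale. Srebf2, a sterol-regulated transcription factor, fell by 0.48, and Mlx, the partner of the carbohydrate-response factor, by 0.44. Thrsp, a lipogenic protein of fat and liver, rose by 1.56. Srebf1, the main lipogenic member of its family, stood at 233 ± 47.7 CPM in old and 216 ± 47.8 CPM in young skin (0.11 ± 0.20, SE, edgeR adjusted p = 0.755; named after its values were seen). Leaving out young replicate 1, 3 or 4, or old replicate 3 or 4, ended the call of Srebf2 (edgeR adjusted p up to 0.10). Leaving out young replicate 2, 3 or 4, or old replicate 1, 3 or 4, ended that of Mlx (up to 0.129).

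Of 18 ceramide and barrier lipid enzymes tested, which use the very long chains of Elovl1 and Elovl4, 5 fell and 2 rose, with a median of -0.17. Cers4, a ceramide synthase, stood at 33.2 ± 6.96 CPM in old and 86.5 ± 12.9 CPM in young skin (SD, n = 4 and 5), a log2 fold change of -1.38 ± 0.17 (SE, edgeR adjusted p = 0.00165). Slc27a4, which activates very long chain fatty acids, fell by 1.03 and Pnpla1, which makes acylceramide, by 0.69. Cers3, the ceramide synthase of ultra-long chains, fell by 1.08 (named after its values were seen), and its call was lost without old replicate 1 or 4 (edgeR adjusted p up to 0.0722). The call of Pnpla1 was lost without old replicate 4 (adjusted p = 0.0618). Cers2, a ceramide synthase found in most tissues, rose by 0.55. Of 9 enzymes of sebum waxes and esters, 1 fell and 0 rose. It was Fa2h, a fatty acid hydroxylase (-1.64 ± 0.42, SE, at 2.15 ± 0.87 CPM in old and 6.73 ± 3.18 CPM in young skin, SD). Its call needed each of young replicates 2, 4 and 5 and old replicates 2 and 4 (edgeR adjusted p up to 0.0637 without one). Of 8 genes of peroxisomal chain shortening, 1 rose and 1 fell. Abcd2, a peroxisomal transporter of very long acyl-CoA, stood at 50.4 ± 26.7 CPM in old and 9.84 ± 3.37 CPM in young skin (log2 fold change 2.36 ± 0.36, SE), and Ehhadh fell by 0.42, a call lost without any one of the 9 libraries (adjusted p up to 0.0923). With the adipocyte score as covariate, in which no gene passed, Acsl1 was at -0.17, Thrsp at -0.057 and Abcd2 at -0.20, while Degs1 was at 0.28 and Degs2 at 0.059, each opposite in sign to its value without the score.

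**Figure D5:**
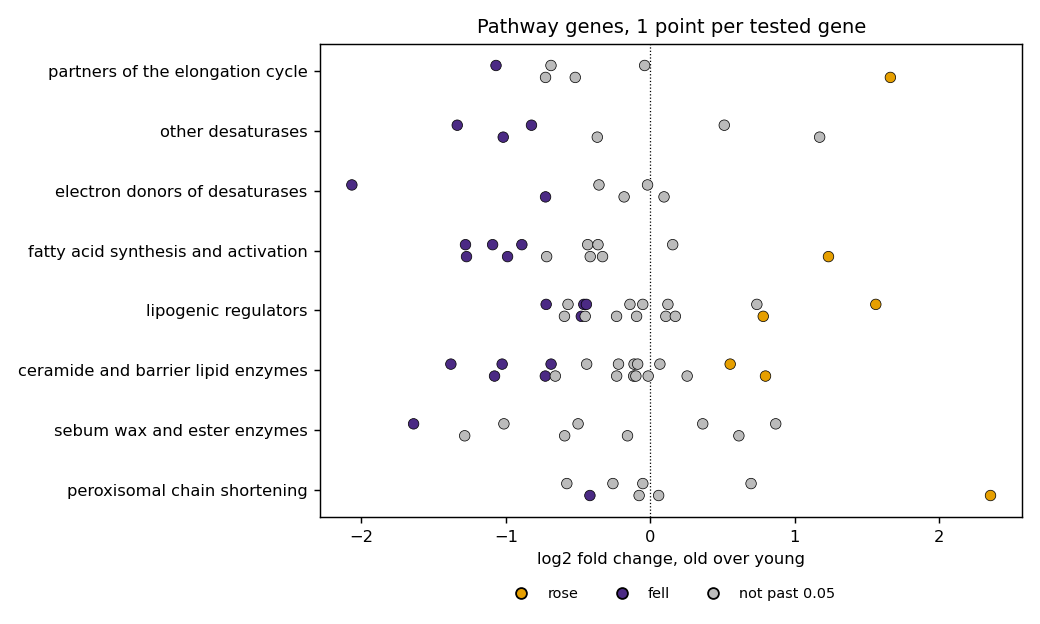
Log2 fold change (old over young) of each tested gene in 8 lists around the members, coloured by call (edgeR adjusted p under 0.05). Falls outnumber rises in 6 of the 8 lists, and the counts are equal, 1 each, for the partners of the elongation cycle and for peroxisomal chain shortening.

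The genes whose profiles over the 9 samples were nearest to a member were found by the root mean square difference of log2 CPM, each profile centred on its own mean, so that the difference between ages weighs in. Nearest to Scd1 were Pxmp4 (difference 0.22), Pitx3 (0.23), Lss (0.27), Rec8 (0.30) and Aacs (0.33), beside an SD of 1.19 of the Scd1 profile itself. Nearest to Elovl3 were Ivd (0.21), Hacl1 (0.25), Cadps (0.31), Tlcd2 (0.33) and Pxmp4 (0.33), beside an SD of 1.49. Among the nearest to Elovl4 were Tmem56 (0.13), Zyg11a (0.17) and Gsta4 (0.18), beside an SD of 0.90. The neighbours of Elovl6 were farther off, Ivd, Elovl3, Fcrlb, Shc3 and Cd6 at 0.53 to 0.54, beside an SD of 1.54. Elovl3 was the only member among the neighbours of these 4 genes.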

How the data were processed

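RNA of the skin of 9 rats was purified with a column kit and its polyadenylated part was turned into TruSeq v2 libraries (an Illumina kit), as the labels' protocols state. Since this kit leaves strand unmarked, a gene's reads cannot be separated from those of an overlapping or antisense gene. BWA is the one tool in the submitters' processing notes; for genome build, annotation and counting rule, nothing is stated in the sources used here. The authors deposited whole-number counts by gene symbol in 1 table with 1 column per sample, all of which were used. Samples were grouped by their titles. The smallest chi-square per degree of freedom between replicates was 30.6, so each library was counted as 1 sample.

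Low genes were removed by filterByExpr at a minimum count of 10 and a total of 15. The ages were compared by the quasi-likelihood test of edgeR 4.0.16 (R 4.3.3) over all genes, scaled by TMM, without covariates; p-values were adjusted by Benjamini-Hochberg. A gene rose or fell where its adjusted p was under 0.05. Each SE was worked back from the F statistic and the log2 fold change. Intervals and floors from counts cover counting error only. The members, lists and tests were chosen with earlier results of these data known. The replicates are different animals by the design text. Of 194 list entries, 184 matched by the same name, 6 by another RefSeq name and 4 did not match. Named were all members, up to 4 called genes per pathway list with the smallest adjusted p, and the 5 nearest profiles (log2 of CPM plus 0.1, mean CPM at least 1) of 4 members; some of these profiles are not reported here. The test was tried on simulated counts. Alternatives used DESeq2 1.42.0, limma-voom (limma 3.58.1), other scalings, filters, a block, covariates, thinning and each library left out; the hair score was an alternative chosen after seeing the data. A planned comparison per transcript length and a protein search were not run. The plots were made in matplotlib 3.10.9.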

Additional observations from a re-analysis of the deposited data

Results flagged for a closer look

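Within-group gaps were examined in 34 sets of 4 or 5 samples, and a sample stood far from the others of its group in 4 of them; chance flags about 1 in 20 groups. For Scd in old skin, replicate 4 was at 428 CPM and the other old samples at 679 to 716 CPM. The sum of Scd and Scd1 showed the same library, at 643 CPM in old replicate 4 and 1015 to 1069 CPM in the other old samples. For Scd1 in young skin, replicate 2 was at 2239 CPM and the others at 1073 to 1384 CPM. The log2 ratio of Elovl3 to Elovl4 in young skin was 0.088 in replicate 3 and 0.29 to 0.34 in the others. Scd kept its call without old replicate 4 at a log2 fold change of -1.06, and Scd1 without young replicate 2 at -1.93 (edgeR adjusted p up to 0.0123 for Scd and 0.00602 for Scd1 over all fits with a library left out).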

How the results depend on the processing

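Over 186 values of the 8 tested members under alternatives, 133 kept direction and side of the threshold, 50 kept direction but no longer passed, and 3 turned; none newly passed. The 3 were Elovl7, at -0.090 with limma-voom, -0.85 with the muscle score and -0.47 without old replicate 3 (-0.47 to 0.55 with any one library left out). Instead of 7, members that fell numbered 4 with library totals alone, the replicate block, the 0.01 threshold or the sebaceous score, 3 with the muscle score and 0 with the adipocyte or suprabasal score; leaving out a library gave 4 to 7. Each of these counts of members above 0 includes Elovl6, which passed the filter through the young samples and adds nothing to them. Members that rose were 0 throughout. All genes that rose (1437) or fell (659) were 702 and 138 at the 0.01 threshold, 0 and 0 with the adipocyte score, 1 and 2 with the suprabasal score, and 863 and 129 with the sebaceous score. Falls were also 1280 with DESeq2, 312 with library totals and 1015 with the hair score; leaving out a library gave 1024 to 1573 rises and 236 to 786 falls. Pathway genes that fell (22) were 7 without old replicate 4 or with the muscle score, 13 with library totals or the block, 7 at 0.01, 6 with the sebaceous score and 0 with the adipocyte or suprabasal score. With the adipocyte score as covariate, Degs2 was at 0.059, Degs1 at 0.28, Acsl1 at -0.17, Thrsp at -0.057 and Abcd2 at -0.20; Degs1 was at 0.13 with the suprabasal score. The causes were not tested. The replicate numbers name different animals, and deviations of same-numbered samples correlated from -0.47 to 0.67 across genes (1 of 4 old samples correlated best with its own number), so the block is no pairing. Depth limits Elovl2 and, in old skin, Elovl6.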
